A study of Homo sapiens with 2 samples.

Results

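TP73 binding was examined at 7 genomic loci that carry 9 named microRNA genes or host genes linked to the p53 pathway or to lymphoma. The genes are MIR34A, MIR34B, MIR34C, MIR143, MIR145, MIR200C, MIR192, MIR155HG and MIR17HG. A peak was assigned to a locus when its summit lay within 35 kb of the locus on the hg19 build, whatever its strength. This placed 34 of the 18908 peaks of the list at the loci, and all 7 loci held at least 1 peak. The locus positions are given to the nearest kb, so distances carry an uncertainty of up to about 1 kb.

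The peaks come from 1 ChIP library of TL-Om1, a leukaemic T-cell line established from adult T-cell leukaemia, immunoprecipitated with an antibody against TP73. The matching input library is whole cell extract from the same line with no antibody. Both come from cells cultured in RPMI-1640 with 10% serum and cross-linked with formaldehyde for 10 min, and the reads are single-end and 50 bases long. Neither library was replicated. Spread between cultures is therefore unknown, and a test between conditions was not possible.

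MicroRNAs are short RNAs, cut from hairpins in longer transcripts, that lower the output of messenger RNAs pairing with their seed, the bases from position 2 to 8. TP73 belongs to the p53 family of transcription factors and recognises the same paired half-site in DNA as p53. The miR-34 family is the classical microRNA arm of the p53 pathway and restrains the cell cycle and survival. The pair of miR-143 and miR-145, miR-200c with miR-141, and miR-192 with miR-194 have also been linked to p53. MIR155HG and MIR17HG, in contrast, host miR-155 and the miR-17-92 cluster, which promote growth in lymphoid cancers.

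The mature microRNAs of the loci are shown because they define what each locus produces. They are from RefSeq on GRCh38.p14, 5′ to 3′, with the seed in capitals. All 16 microRNA genes of the 7 loci were matched, with 30 mature forms, and 1 form of each gene is printed here. MIR34A, on the minus strand of chromosome 1, and MIR34B and MIR34C, on the plus strand of chromosome 11, give the miR-34 family. The seed of miR-34b-5p overlaps that of miR-34a-5p, shifted by a base. For MIR34C and MIR141 only the 3p form was among the 30. The seed of miR-34c-5p was therefore not compared with these.
miR-34a-5p: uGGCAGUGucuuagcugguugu
miR-34b-5p: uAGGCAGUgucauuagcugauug
miR-34c-3p: aAUCACUAaccacacggccagg
The genes MIR143 and MIR145 are neighbours on the plus strand of chromosome 5, and their seeds do not match.
miR-143-3p: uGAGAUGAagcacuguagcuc
miR-145-5p: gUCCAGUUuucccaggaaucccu
MIR200C and MIR141 lie on the plus strand of chromosome 12, and their seeds differ at a single base. MIR192 and MIR194-2 lie on the minus strand of chromosome 11.
miR-200c-3p: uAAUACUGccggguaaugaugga
miR-141-3p: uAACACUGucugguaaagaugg
miR-192-5p: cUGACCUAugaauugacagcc
miR-194-5p: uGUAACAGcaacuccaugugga
MIR155HG on chromosome 21 hosts MIR155, and MIR17HG on chromosome 13 hosts MIR17, MIR18A, MIR19A, MIR20A, MIR19B1 and MIR92A1, all on the plus strand. Within MIR17HG, miR-17-5p and miR-20a-5p share a seed, and so do miR-19a-3p and miR-19b-3p.
miR-155-5p: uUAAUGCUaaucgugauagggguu
miR-17-5p: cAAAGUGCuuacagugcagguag
miR-20a-5p: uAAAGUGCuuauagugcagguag
miR-18a-5p: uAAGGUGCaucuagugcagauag
miR-19a-3p: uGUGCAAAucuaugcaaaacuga
miR-19b-3p: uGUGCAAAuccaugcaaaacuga
miR-92a-3p: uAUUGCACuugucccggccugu

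Each peak is described by its fold enrichment, the authors' ratio of ChIP to control background at the summit, and by the −log10 of its q-value. That background is either local or genome-wide. ChIP reads at the summit, and the control background in reads per fragment of 142 bp, were solved from the fold and p-value. Intervals on reads are exact 95% Poisson intervals. Intervals on fold follow from them with the background held fixed. Both cover counting error of the ChIP reads only, and not that of the control.

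The median fold of the 34 peaks was 9.41, against 11.3 over all 18908 peaks, and their quartiles were 7.68 and 14.6, against 8.31 and 18.7. A fold of at least 10 was reached by 15 of the 34 (44.1%), against 59.8% of all peaks. A fold of at least 20 was reached by 6 (17.6%), against 23.0%, and a fold of at least 50 by 1 (2.94%), against 3.54%. The median number of ChIP reads at the summit was 36, against 43 over all peaks. Of the 6 peaks with a fold of at least 20, MIR34A and MIR192 had 2 each, and MIR34B/MIR34C and MIR143/MIR145 had 1 each. MIR200C, MIR155HG and MIR17HG had 0 within 35 kb, although the highest fold at MIR200C was 24.0 when taken over the genome-wide background.

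**Figure D1:**
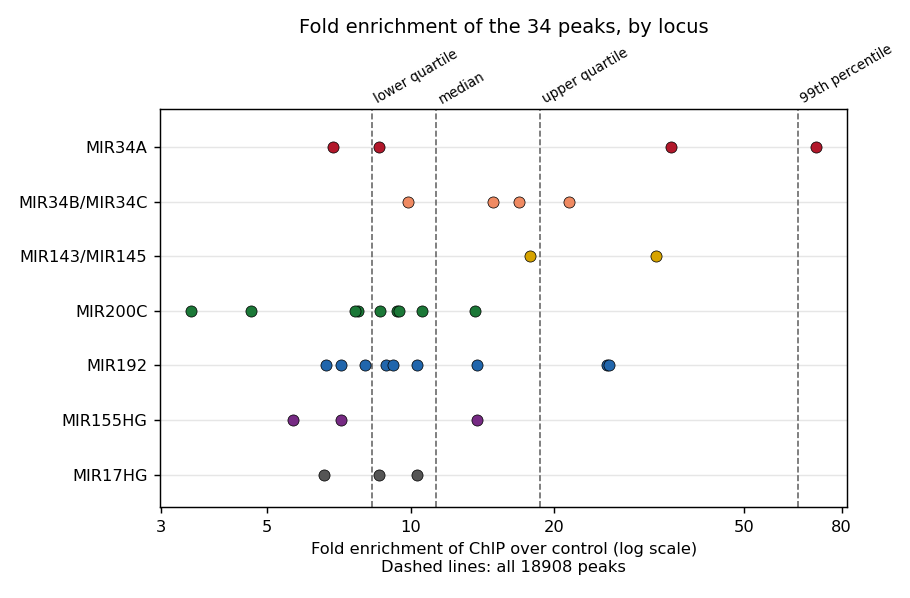
Fold enrichment (log scale) of each of the 34 peaks, 1 row per locus, with dashed lines at the quartiles, median and 99th percentile of all 18908 peaks. The MIR34A row holds the highest value, 70.7, while the MIR17HG peaks lie at 10.3 or below, left of the median line at 11.3.

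Within 35 kb, MIR34A carried the strongest TP73 peak of the 7 loci. Its 4 peaks had folds of 6.88, 8.60, 35.1 and 70.7. The fold was 70.7 at the peak on chromosome 1 at 9241789 to 9242501, whose summit lay 30.2 kb upstream of the locus. This peak ranked 77th by fold among the 18908 and was the widest of the 34, at 713 bp. It rested on 267 ChIP reads (interval 236 to 301) over a background of 2.70 control reads, and its −log10 q-value was 401.5. The second peak, at 9222874 to 9223361 and 11.1 kb upstream, had a fold of 35.1 with 179 reads (154 to 207) over 4.0 control reads. The read intervals of these peaks do not overlap. The remaining summits were weak: 12.2 kb upstream the fold was 8.60 with 29 reads, and 5.43 kb downstream it was 6.88 with 23 reads. Within 10 kb of the hairpin, that 6.88-fold peak was therefore the only one. With windows of 10 kb, MIR34A thus came last of the 7 loci by highest fold.

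As background, transcription of MIR34A is known to start far upstream of the hairpin, near a binding site of p53. RefSeq lists the host gene MIR34AHG across MIR34A, with LNCTAM34A, a long non-coding RNA, at the start of MIR34AHG on the opposite strand. Promoters here are 250 bases before to 50 bases after a gene start, 300 bases in all. They were searched for the p53 half-site and for the full p53 site of 2 adjacent half-sites. The half-site reads the same on both strands, so a single scan covers both. A full site with 0 mismatches was found in the LNCTAM34A promoter, and it is printed in capitals below. Only 6 of 35116 RefSeq promoters (0.0171%) hold such a site. With up to 2 mismatches, none of them at the central C or G of either half-site, 100 (0.285%) hold one. The site spans positions -60 to -41 from the gene start. The MIR34AHG promoter itself held no half-site.
LNCTAM34A promoter: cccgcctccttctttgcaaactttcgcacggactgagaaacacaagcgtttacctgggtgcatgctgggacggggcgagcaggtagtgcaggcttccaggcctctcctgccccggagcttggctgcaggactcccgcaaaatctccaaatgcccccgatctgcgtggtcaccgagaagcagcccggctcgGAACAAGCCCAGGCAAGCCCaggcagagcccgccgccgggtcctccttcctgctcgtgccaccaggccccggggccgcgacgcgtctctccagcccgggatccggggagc
The promoter is on chromosome 1, plus strand, of GRCh38.p14. The peak is on hg19, and whether these bases lie inside it was not tested.

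At MIR34B/MIR34C the highest fold belonged to the summit nearest to the hairpins. That peak, on chromosome 11 at 111381141 to 111381414, lay 1.73 kb upstream. It had a fold of 21.5 (17.2 to 26.4), with 87 reads over 3.0 control reads. A weaker summit 9.45 kb upstream had a fold of 9.89 with 48 reads. On the downstream side, summits at 17.6 and 18.2 kb stood 652 bp apart with folds of 16.9 and 14.9, on 58 and 60 reads. Their fold intervals, 12.9 to 21.7 and 11.4 to 19.1, overlap. In RefSeq the protein-coding gene BTG4 overlaps the combined span of MIR34B, MIR34C and the host gene MIR34BHG. HOATZ is the next protein-coding gene to the right, so the peaks cannot be assigned to the microRNAs alone.

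MIR34BHG, the long non-coding host of MIR34B, has in its promoter a full p53 site with 2 mismatches. It is shown beside that of LNCTAM34A because both miR-34 loci have a promoter that holds one. The site, in capitals, spans positions -61 to -42 from the start, on the plus strand of chromosome 11 (GRCh38.p14).
MIR34BHG promoter: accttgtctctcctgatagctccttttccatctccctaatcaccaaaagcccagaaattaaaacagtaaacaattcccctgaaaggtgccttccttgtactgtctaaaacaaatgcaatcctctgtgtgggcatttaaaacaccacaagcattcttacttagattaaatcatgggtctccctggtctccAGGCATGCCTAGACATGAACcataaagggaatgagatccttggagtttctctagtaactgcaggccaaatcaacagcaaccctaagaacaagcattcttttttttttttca
Among the 8 promoters of host or adjoining non-coding genes searched at the 7 loci, these were the 2 with a full site. The search was uneven: an adjoining gene, LNCTAM34A, was included only at MIR34A, and the other loci were searched at their host gene only. With host genes alone, MIR34BHG would be the only promoter with a full site. Exact half-sites were found in 4 promoters, those of LNCTAM34A, MIR34BHG, CARMN and MIR17HG, against 6.63% of all promoters. The searched letters were absent from the promoters of MIR34AHG, MIR200CHG, MIR194-2HG and MIR155HG. The rule for mismatches was set after these promoters had been seen, and a match describes letters, not binding.

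MIR143 and MIR145 had 2 peaks, the fewest of the 7 loci, and both had folds above the median of the list. The first peak, on chromosome 5 at 148808624 to 148808851, had its summit inside the locus with a fold of 17.8 (13.7 to 22.7) and 61 reads. The second, at 148819817 to 148820188, lay 8.99 kb downstream with a fold of 32.7 (27.4 to 38.7) and 133 reads. The downstream peak was thus the stronger, and the fold intervals do not overlap. Another peak fell just outside the window, at 35.5 kb with a fold of 8.31, whereas the farthest peak inside any window lay at 33.1 kb, near MIR192, with a fold of 9.17. CARMN, the long non-coding host of the pair, has a half-site in its promoter at positions -14 to -5. The neighbouring protein-coding genes are IL17B and CSNK1A1.

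**Figure D2:**
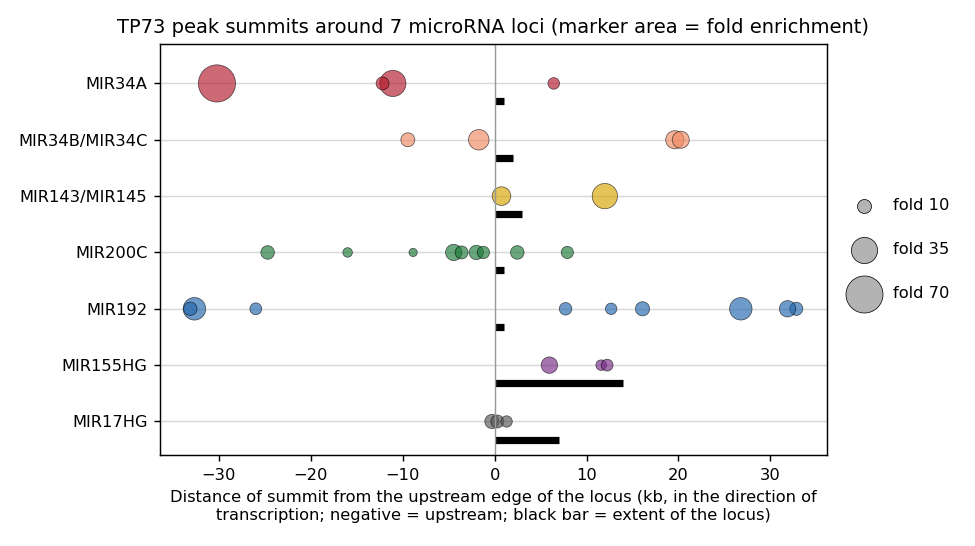
Summits of the 34 peaks around each locus. The x axis is the distance in kb from the upstream edge of the locus in the direction of transcription, the black bar is the locus, and marker area is the fold. The largest marker is the MIR34A peak 30.2 kb upstream, and the MIR17HG summits cluster at 0.

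MIR200C had 9 peaks, as many as any locus. The folds ran between 3.47 and 13.7 with a median of 8.65. The peak with the highest fold, on chromosome 12 at 7067410 to 7067730, lay 4.45 kb upstream with 83 reads over 5.0 control reads. Its neighbour at 3.60 kb had a fold of 8.65 with 30 reads. Summits 1999 and 1225 bp upstream had folds of 10.6 and 7.78, and one at 1.46 kb downstream had 9.44. At 6.91 kb downstream the fold was 7.65, and at 24.7 kb upstream it was 9.38.

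The lowest folds of the 34 were also here. The summits 15999 and 8873 bp upstream had folds of 4.64 and 3.47, which put them at ranks 18844 and 18903 of 18908. Their ChIP reads were 37 and 31, within the range of 28 to 83 at the other 7 peaks of the locus. The control background was 7.0 and 8.0 reads at these summits, the highest of the 34. Both peaks had 2 solutions for reads and background, and the one that gave whole reads was kept. All 9 peaks of this locus were scored against a background above the genome-wide 2.41 reads, a level used at 51.9% of all peaks and at 14 of the 34 (41.2%). Over the genome-wide background the highest fold at MIR200C would be 24.0. The part that local control coverage plays in these folds was not tested. RefSeq places PTPN6, a phosphatase of blood cells, and PHB2 next to MIR200C.

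MIR192 also had 9 peaks, and its stronger ones were far from the hairpins. A fold of 26.0 was reached 32.7 kb upstream, on chromosome 11 at 64691543 to 64691877, with 90 reads. The fold was 25.8 at the peak 25.8 kb downstream, at 64632012 to 64632547, with 89 reads. These 2 peaks sit on opposite sides of MIR192, and their fold intervals overlap (20.8 to 31.7 for the downstream peak). The nearest summit to MIR192, 6.71 kb downstream and the only one within 10 kb, had a fold of 8.02 and 27 reads. The other 6 peaks had folds between 6.66 and 13.8. EHD1 and ATG2A are the nearest protein-coding genes on either side, and the peaks were not assigned to them or to MIR192.

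The 2 host genes linked to lymphoma had 3 peaks each, with folds of at most 13.8, all within the genes or at their edge. At MIR155HG, also known as BIC, 3 summits lay inside the gene. The highest fold, 13.8 (10.2 to 18.2), was on chromosome 21 at 26939879 to 26940072, 5.96 kb from the upstream edge, with 47 reads. Farther in, at 11.6 and 12.2 kb, the folds were 5.66 and 7.17, with 28 and 24 reads, and these summits stood 652 bp apart. No summit lay in the 35 kb on either flank, and the next peak was 64.2 kb away. With windows of 100 kb the locus held 6 peaks, and the highest fold was 20.3.

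MIR17HG had 3 peaks at its upstream edge. The first spanned 91999595 to 92000080 on chromosome 13, with a fold of 10.3 (7.27 to 14.2) and 35 reads. The second, at 92000164 to 92000404, had a fold of 8.60 and 29 reads. The third, at 92001232 to 92001438, had a fold of 6.59 (4.24 to 9.83) and 22 reads. Reads and folds decreased from the edge inward, but the 3 read intervals overlap, and whether the order exceeds counting error was not tested. All 3 were scored against the genome-wide background. No other peak lay near them, since the next summit was 1050 kb away, with a fold of 7.45. The promoter of MIR17HG is shown because the summits fall at the gene's upstream edge. Its p53 half-site, in capitals, spans positions -43 to -34, and a full site was not found. The GC content of this promoter was 73.0%, against a median of 58.7% over all promoters.
MIR17HG promoter: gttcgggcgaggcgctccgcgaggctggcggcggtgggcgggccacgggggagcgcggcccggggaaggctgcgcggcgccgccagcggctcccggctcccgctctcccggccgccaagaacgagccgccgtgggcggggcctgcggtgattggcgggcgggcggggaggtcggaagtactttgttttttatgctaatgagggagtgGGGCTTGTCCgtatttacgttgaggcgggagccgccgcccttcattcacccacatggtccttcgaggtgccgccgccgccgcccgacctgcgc
This sequence is on the plus strand of chromosome 13, GRCh38.p14, and was not placed against the hg19 peaks.

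TP73 summits were dense around these loci compared with their chromosomes. The 7 windows cover 519 kb in all and held 65.5 peaks per Mb (95% Poisson interval 45.4 to 91.5). This interval treats summits as independent, while 14 of the 34 had another within 1 kb, so it may be too narrow. The 6 chromosomes concerned carried between 5.48 and 8.28 peaks per Mb. Tiles of 71 kb, the length of the shortest window, were laid end to end over those chromosomes, giving 11694 tiles. At least 1 summit was present at 7 of 7 loci, against 28.6% of tiles. At least 3 summits were present at 6 of 7 loci, against 4.89% of tiles, and at least 9 at MIR200C and MIR192, against 0.0684% of tiles. The tiles include stretches without genes and gaps in the assembly, and the windows are up to 84 kb long. The share that gene density has in this contrast was not tested. The loci and windows were chosen with earlier results of these data known, so the contrast may not be independent of that choice. At each locus separately, the same count or more was found in 9.05% of equally long tiles of chromosome 5 for MIR143/MIR145. For MIR155HG it was 6.28% on chromosome 21, for MIR17HG 4.27% on chromosome 13, for MIR34A 3.02% on chromosome 1 and for MIR34B/MIR34C 2.26% on chromosome 11. The 9 peaks of MIR192 were matched by 4 tiles of chromosome 11, and those of MIR200C by 1 tile of chromosome 12; tiles can overlap the loci themselves.

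**Figure D3:**
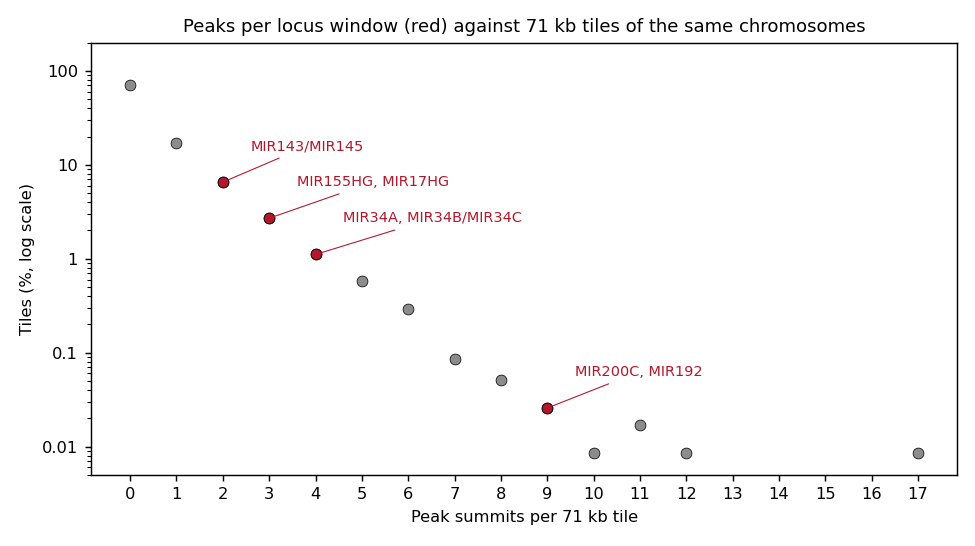
Share of 71 kb tiles (%, log scale) holding each number of peak summits over the 6 chromosomes of the loci, with the loci in red at their own counts. Tiles with 0 summits make up 71.4%, while the loci sit at 2 to 9 summits.

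The peaks were also closely spaced. Another summit lay within 1 kb of 14 of the 34 (41.2%), against 13.3% of all peaks. The comparison is with all peaks, not with those of equally dense windows. The share that density has in it was not tested. These formed 7 pairs at 5 loci, with summits 446 to 944 bp apart. In the closest pair, upstream of MIR192, 55 bp separated the peaks and the reads were 90 and 31. In the pair downstream of MIR34B/MIR34C the reads were nearly equal, at 58 and 60. Whether a pair stands for separate binding sites or for 1 region divided by the caller was not tested.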

How the data were processed

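The data are a peak list called on 1 ChIP library of TL-Om1 cells, with 1 input library as the stated background. The submitters' processing notes name Bowtie2, SAMtools, MACS2 and hg19. For parameters and duplicate handling, the sources used here give nothing. The deposited list gives each peak's fold (a ratio of ChIP to control at the summit), −log10 p-value, −log10 q-value and a score, which was not used further. The authors' peak names contain the text IgG whereas the labels name whole cell extract, so which control the caller used is not settled, and "control" means that library.

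Summits are the start plus the offset, printed counted from 1. ChIP reads and background were solved from fold and p-value with the MACS2 formulas, where 1 ChIP read is worth 0.9754 units of pileup. The solved reads were whole within 0.02 reads at 100% of 8987 peaks that played no part in fitting it, and 32 of the 34 peaks had a single solution. The solver was tested on simulated data. The library depths are not part of the list. Summits of the list had 18 to 284 ChIP reads, with a median of 43, and these numbers set the precision of each value.

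Sequences are from RefSeq (GRCh38.p14), matched by symbol, and names of neighbouring genes come from the same assembly. No coordinate was carried between builds. Every peak in a window is included by rule. The members, the windows and the lists were chosen with earlier results of these data known. No test was made, since there is 1 library per group. Scripts ran in Python 3.11.15 with scipy 1.17.1, pandas 2.3.3, numpy 2.4.6 and, for plots, matplotlib 3.10.9.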

Additional observations from a re-analysis of the deposited data

How the results depend on the processing

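Under 9 alternatives, all 7 loci kept at least 1 peak wherever that number was recomputed. Windows of 10 kb left 19 peaks, 7 of them with a fold of at least 10, against 34 and 15 with 35 kb; windows of 100 kb held 24 peaks with such a fold. The median fold stayed between 8.65 and 10.6. The highest fold at MIR34A depends on the window: it was 35.1 with 20 kb and 6.88 with 10 kb, since the 70.7-fold peak lies farther out. At MIR192 it was 10.3 and 8.02. With 100 kb, MIR155HG held 6 peaks in place of 3, with a highest fold of 20.3 in place of 13.8. MIR34B/MIR34C held 8 in place of 4, with a highest fold of 26.7 in place of 21.5, and MIR143/MIR145 held 4 in place of 2. Over the genome-wide background the highest fold at MIR200C was 24.0 in place of 13.7. Limits on q-value and fold, peak overlap in place of summits, and merging within 500 bp left 31 to 34 peaks. Leaving out a library would leave no peak list. No paired analysis was possible because this list comes from a single ChIP library. Sites below the caller's limit were not analysed here.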
